A study of Homo sapiens with 18 samples.

Results

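Senescent human lung fibroblasts that received HDM201 (IR_HDM201, 3 libraries) were compared with proliferating fibroblasts that received only the solvent DMSO (Prolif_DMSO, 3 libraries), so 6 of the 18 libraries of the series carry the comparison. The libraries were taken by their labels. All cells were wild-type IMR90, a single strain of primary lung fibroblasts. Ionizing radiation (IR) made the cells senescent, HDM201 was present for 7 days from day 4 after irradiation with fresh medium on days 7 and 10, and RNA was collected on day 11. For the proliferating cultures the labels give no length of treatment and no day of feeding or collection. Senescent cells given DMSO (IR_DMSO, 3 libraries) define the senescent profile, and proliferating cells given HDM201 (Prolif_HDM201, 3 libraries) serve as compound-matched controls. Irradiation and compound differ together between IR_HDM201 and Prolif_DMSO, so their parts cannot be told apart in that comparison alone. Time in culture and feeding may differ as well, and the exposure of Prolif_HDM201 to the compound may differ in length from that of IR_HDM201. Nothing in the labels tells whether replicates were irradiated separately, and the p-values rest on the spread of these libraries alone, part of which may be technical. The question was what of the senescent profile remained under HDM201 and what returned to the proliferating level.

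Senescent cells have left the cell cycle for good but stay alive, with p53 and its target p21 holding the arrest, and they secrete cytokines, chemokines, proteases and growth factors known as the senescence-associated secretory phenotype (SASP). The cytokine arm of this secretion is driven largely by the transcription factor NF-kB, and an interferon response often accompanies it when DNA reaches the cytoplasm. HDM201 (siremadlin) keeps the ligase MDM2 from binding p53, which stabilizes p53.

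Depth ranged from 21609198 to 66647700 counted reads among the 6 libraries. Levels are in CPM, counts relative to library size after TMM scaling (trimmed mean of M values). Fibroblast identity was checked first. The summed level of 20 fibroblast markers was 62950 to 68350 CPM in Prolif_DMSO and 31960 to 32310 CPM in IR_HDM201. Of the 20 markers, 13 were called lower and 3 higher (25% and 25.2% of all genes). Leukocyte markers summed to 2.02 to 3.49 CPM in Prolif_DMSO and 2.62 to 3.33 CPM in IR_HDM201. Of 18 listed, 9 were at or below 0.1 CPM in each of the 6 libraries, among them CD3D, CD3E, CD2 and CD163. Of the 5 leukocyte markers tested, CD14 and CD68 were called higher (log2 fold changes 2.02 and 0.83) and 1 was lower. Summed epithelial markers were at 274.8 to 293.4 and 289 to 404.2 CPM, with CLDN3, OVOL1, SFTPC and NKX2-1 at or below 0.1 CPM. Of 7 epithelial markers tested, KRT19 was called higher (2.21) and 1 was lower. The 12 endothelial markers summed to 108.5 to 119.7 and 145.1 to 155.9 CPM, with 2 of 9 tested called higher and 1 lower. Their parts in the results were not tested. In bulk RNA, fewer cells of a type and less RNA per cell cannot be told apart. IR_DMSO replicate 1 had 0.668% of its counts on mitochondrially encoded genes, against 3.13% and 3.15% in replicates 2 and 3, and stood apart from them, as Prolif_HDM201 replicate 3 did from its group. Neither is among the 6 libraries of the comparison, but IR_DMSO replicate 1 is part of the group that defines the senescent profile. On principal component 2 of the 2000 most variable genes, Prolif_DMSO replicate 1 lay at 15.5 (replicates 2 and 3 at -0.622 and 1.55). IR_HDM201 replicate 1 lay at -15 (replicates 2 and 3 at -26.5 and -23.6).

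Most genes of the senescent profile were still called in the same direction under HDM201, part of them at a reduced size. A smaller part came back to the proliferating level or passed it. Of 18151 genes tested with edgeR, 9114 were called between IR_HDM201 and Prolif_DMSO, 4571 higher and 4543 lower, at an adjusted p under 0.05. Differences are given as log2 fold changes ± SE from that fit, and intervals as 95% intervals. The calls are 50.2% of all genes (25.2% higher and 25% lower), with a median log2 fold change over all genes of 0.01. A change of 2-fold or more was met by 1908 higher (10.5%) and 2034 lower genes (11.2%). The higher genes made up 50.2% of the calls. With no scaling beyond library totals they made up 60.2%, and the median over all genes shifted by 0.142. The libraries of the groups did not overlap for 10828 genes (59.7%). IR_DMSO against Prolif_DMSO, which shares the Prolif_DMSO libraries, called 9364 genes (51.6%), of which 2457 were raised (13.5%) and 1674 lowered (9.22%) at 2-fold or more, and these 4131 genes are the senescent profile used below.

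Each profile gene was then placed by its level in IR_HDM201 against Prolif_DMSO. A gene counted as remaining when it was called in the same direction, as returned when it was not called and the 95% interval of its log2 fold change lay within 1 of 0, as opposite when it was called the other way, and as unresolved otherwise. Of the 2457 genes raised by irradiation, 1633 remained (66.5%), 142 returned (5.78%), 36 were opposite (1.47%) and 646 were unresolved (26.3%). The 1674 lowered genes split into 1521 remaining (90.9%), 41 returned (2.45%), 4 opposite (0.239%) and 108 unresolved (6.45%). These shares are a description, since both comparisons use the same Prolif_DMSO libraries. The long noncoding gene AC027796.4 lay just inside the bound for return (farthest interval edge 0.9997) and DDX60L, a relative of the interferon-stimulated helicase DDX60, just outside (1.0029). Remaining did not mean untouched by the compound, and it required no minimum size. Of the genes that remained, 245 raised and 242 lowered ones differed by less than 2-fold from Prolif_DMSO, CXCL8 among the raised. Of the 1633 raised genes that remained, 297 were called closer to the proliferating level in IR_HDM201 than in IR_DMSO, 116 farther from it and 1220 not called between those groups. Among the 1521 lowered genes that remained, 188 were called closer and 262 farther. The 646 unresolved raised genes had a median log2 fold change of 0.69 against Prolif_DMSO, after 1.92 in IR_DMSO. Of these 646, 235 were called closer to the proliferating level than in IR_DMSO, and 426 lay under 2-fold. The direct comparison of IR_HDM201 with IR_DMSO called 3861 genes (21.3%), with 171 higher (0.942%) and 989 lower (5.45%) by 2-fold or more. The histogram of profile genes shows these classes by log2 fold change.

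**Figure D1:**
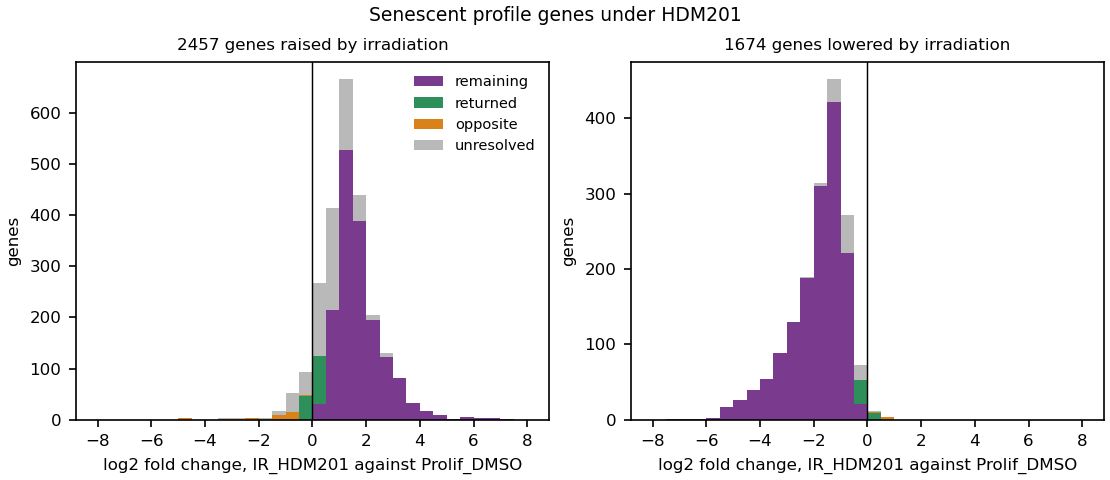
Number of genes (vertical axis) by log2 fold change of IR_HDM201 against Prolif_DMSO (horizontal axis, bins of 0.5), for the 2457 genes raised (left) and the 1674 genes lowered (right) by irradiation in DMSO, with color for the class. Most raised genes still lie above 0 and most lowered genes below it, and the 142 and 41 returned genes lie around 0.

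Cell-division genes stayed in their senescent state. All 63 mitosis genes tested were lower in IR_HDM201 than in Prolif_DMSO (25% of all genes were), with a median log2 fold change of -4.18, against -3.31 in IR_DMSO against Prolif_DMSO. MKI67, a marker of cycling cells, stood at 526, 447 and 545 CPM in Prolif_DMSO, 17.96, 35.7 and 33.05 CPM in IR_DMSO and 18.5, 10.1 and 10.3 CPM in IR_HDM201. Every irradiated library lay far below every proliferating one, and the ranges of both irradiated groups overlapped. Its log2 fold change in IR_HDM201 against Prolif_DMSO was -5.25 ± 0.42 (edgeR, adjusted p = 7.28e-08). KIF20A, a kinesin of cytokinesis, had 199, 214 and 209.8 CPM in Prolif_DMSO, 12.4, 16.8 and 17.4 in IR_DMSO and 5.23, 2.94 and 3.38 in IR_HDM201, 3 groups that did not overlap. It was 51.6-fold lower than in Prolif_DMSO (-5.69 ± 0.18, adjusted p = 1.02e-16) and also lower than in IR_DMSO (-1.95 ± 0.17, adjusted p = 1.44e-08). PLK1, the kinase that drives mitotic entry and spindle assembly, went to 5.66 ± 1.74 CPM from 247 ± 20.7 (SD, n = 3; -5.40 ± 0.17), AURKB, the kinase of chromosome segregation, to 2.83 ± 0.5305 from 98.3 ± 3.05 CPM (-5.16 ± 0.15), and BIRC5, which encodes survivin, to 8.096 ± 0.8300 from 212 ± 13.3 CPM (-4.70 ± 0.14). In IR_HDM201 against IR_DMSO, 51 of the 63 genes were lower and 1 higher (11.3% and 9.96% of all genes), with a median of -0.83. Against the compound-matched Prolif_HDM201, where 23.8% of all genes were lower, all 63 were again lower (median -3.81). All 62 members in the 2-fold profile remained.

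Promoters of many mitotic genes are known to carry a repression element, the cell-cycle genes homology region (CHR), through which the DREAM complex holds mitotic genes down when p53 and p21 are active. Windows from 250 bases before to 50 after the start site were taken from RefSeq (GRCh38.p14) and read on both strands. The CHR letters TTTGAA stood in 41 of the 55 mitosis promoters that matched by symbol (74.5%), against 15.4% of 27305 promoters. Of 10 mitosis genes looked up 8 had an entry, and the windows of the 5 with a match before the start site are shown to give its place. Capitals mark every match in either direction. Between the nearest match and the start site lie 23 bases in PLK1, CCNB2 and MKI67, 155 in CDK1 and 145 in TOP2A, where it reads on the opposite strand, and the MKI67 window holds a further match upstream.
PLK1, chr16:23678836-23678885, plus strand: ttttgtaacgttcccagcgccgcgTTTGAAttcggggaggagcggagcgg
CCNB2, chr15:59105093-59105142, plus strand: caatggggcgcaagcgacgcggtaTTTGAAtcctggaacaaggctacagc
MKI67, chr10:128126427-128126476, minus strand: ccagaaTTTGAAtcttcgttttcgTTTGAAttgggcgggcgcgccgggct
CDK1, chr10:60778146-60778195, plus strand: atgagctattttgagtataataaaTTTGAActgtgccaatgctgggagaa
TOP2A, chr17:40418022-40418071, minus strand: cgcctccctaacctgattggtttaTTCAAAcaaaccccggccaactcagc
CCNB2, the cyclin of the mitotic kinase, was at 5.83 ± 0.584 CPM in IR_HDM201 and 110.3 ± 0.348 in Prolif_DMSO (-4.25 ± 0.13, adjusted p = 2.78e-17). CDK1, the mitotic kinase, and TOP2A, a topoisomerase, chosen after their values were seen, changed by -3.99 ± 0.19 and -4.00 ± 0.28. A match of letters describes the window and was not tested as a binding site.

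DNA replication and repair genes remained low as well. All 54 replication and E2F genes tested were lower in IR_HDM201 than in Prolif_DMSO (25% of all genes were), with a median of -2.33, against -2.16 in IR_DMSO. Of the 54, 13 were lower than in IR_DMSO (11.3% of all genes were). MYBL2, a transcription factor of S phase, stood at 195, 187 and 178 CPM in Prolif_DMSO, 10.9, 10.7 and 9.804 in IR_DMSO and 8.62, 8.96 and 6.97 in IR_HDM201 (-4.51 ± 0.13). TK1, the salvage kinase for thymidine, fell to 13.3 ± 1.84 from 197 ± 19.9 CPM (-3.88 ± 0.14), and CDC45 and MCM7, parts of the replicative helicase, changed by -3.56 ± 0.13 and -3.07 ± 0.12. E2F motifs (TTTCGCGC or TTTGGCGC) stood in 14 of 48 matched promoters (29.2%), against 1.18% of all promoters. Of 43 genes of homologous recombination and the Fanconi anemia pathway, which mend double-strand breaks and crosslinks, 36 were lower and 1 was higher (median -1.44, and -1.44 in IR_DMSO). FANCD2, the protein ubiquitinated at crosslinks, had 39.4, 39.8 and 41.6 CPM in Prolif_DMSO and 3.22, 2.99 and 2.71 in IR_HDM201 (-3.74 ± 0.13). The 1 higher member was ATM, the kinase that signals breaks, at 39.3 ± 5.99 against 21.5 ± 2.62 CPM (0.87 ± 0.26, adjusted p = 0.00978). End joining, which mends breaks without a template, had 15 of 28 genes lower and 3 higher (median -0.53). XRCC4, the partner of DNA ligase IV, was one that did not follow irradiation. Its level was 13.3, 10.9 and 11.9 CPM in Prolif_DMSO, 11.8, 10.3 and 10.8 in IR_DMSO and 24.6, 26.9 and 25.1 in IR_HDM201, so it rose under HDM201 alone of these groups (1.08 ± 0.15 against Prolif_DMSO, adjusted p = 2.74e-06, and 1.22 ± 0.15 against IR_DMSO). LIG4, the ligase itself, was higher than in Prolif_DMSO (0.82 ± 0.16), after 0.63 in IR_DMSO. H2AFX, the histone phosphorylated at breaks, was lower (-2.98 ± 0.14), as was PARP1, which senses nicks (-1.72 ± 0.09).

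The nuclear lamina and chromatin genes kept most of their senescent pattern. LMNB1, the lamin that senescent cells lose, stood at 141, 144 and 149 CPM in Prolif_DMSO, 8.502, 5.47 and 6.52 in IR_DMSO and 5.29, 4.17 and 4.31 in IR_HDM201, with no overlap between the irradiated groups and Prolif_DMSO (-4.95 ± 0.16, adjusted p = 5.63e-17). Of 30 genes of the lamina, nuclear envelope and HMG proteins, 24 were lower and 1 higher (25% and 25.2% of all genes). The median of the list was -1.30, against -1.25 in IR_DMSO, where 25 were lower and 0 higher. HMGB2, which marks the loss of chromatin bending proteins in senescence, changed by -4.45 ± 0.14. The exceptions were the HMGA genes, architectural proteins of heterochromatin foci. HMGA1 returned, with 486, 769 and 832 CPM in IR_DMSO, 1210.0, 1356 and 1260.3 in IR_HDM201 and 1549, 1608 and 1358 in Prolif_DMSO (-0.24 ± 0.15, interval -0.56 to 0.08), although a fit to the groups compared alone called it lower (adjusted p = 0.0315), as did leaving out the libraries that stood apart (0.00276). HMGA2 was the 1 higher member, 912, 782 and 744 CPM against 407, 394 and 403 in Prolif_DMSO and 272, 429.5 and 437 in IR_DMSO (1.02 ± 0.14, adjusted p = 3.09e-06). HIST1H2AC, a core histone gene whose transcripts can be polyadenylated outside S phase, was among the 12 largest rises of genes that were called, reached a mean of 1 CPM and did not overlap between groups (4.49 ± 0.12, from 6.51 ± 0.814 to 146 ± 2.22 CPM).

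Most p53 targets remained high. Of 61 tested of 63 listed, 39 were higher and 8 lower in IR_HDM201 than in Prolif_DMSO (25.2% and 25% of all genes), with a median of 1.12. In IR_DMSO against Prolif_DMSO 44 were higher and 6 lower (26.3% and 25.3% of all genes), with a median of 1.13. Between the irradiated groups, 19 were lower and 4 higher in IR_HDM201 than in IR_DMSO (11.3% and 9.96% of all genes). CDKN1A (chromosome 6, 36676460 to 36687337, hg38), which encodes p21, stood at 222, 246 and 225 CPM in Prolif_DMSO, 1709, 1868 and 1878 in IR_DMSO and 1656, 1839.9 and 1795 in IR_HDM201. It was 7.63-fold higher than in Prolif_DMSO (2.93 ± 0.11, adjusted p = 1.19e-15), and against IR_DMSO the difference was -0.04 ± 0.11 (interval -0.26 to 0.18). Proliferating cells given HDM201 had 701, 673 and 508 CPM, so the compound-matched difference was smaller (1.49 ± 0.11). MDM2, the p53 ligase that p53 itself induces, had 34.7, 33.7 and 44.8 CPM in Prolif_DMSO and 189.8, 150.4 and 147 in IR_HDM201 (2.11 ± 0.18). BTG2, an inhibitor of proliferation, was at 28.5 ± 2.17 against 3.58 ± 0.267 CPM (3.00 ± 0.13) and SPATA18, a mitochondrial quality control gene, at 38.2 ± 4.42 against 3.53 ± 0.473 CPM (3.45 ± 0.13). The decoy receptor TNFRSF10C for the death ligand TRAIL changed by 4.82 ± 0.20.

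Some p53 targets left the senescent level in either direction. GDF15, a stress cytokine, remained high but much reduced, with 10.6, 13.3 and 11.4 CPM in Prolif_DMSO, 406, 314 and 338 in IR_DMSO and 84.9, 97.7 and 98.3 in IR_HDM201. The 3 groups did not overlap, at 3.00 ± 0.14 against Prolif_DMSO and -1.91 ± 0.13 against IR_DMSO (adjusted p = 2.65e-10). PLK2, a kinase of the stress response, was the 1 profile member of the list that returned, from 161, 234 and 209 CPM in IR_DMSO to 78.6, 71.7 and 70.99 in IR_HDM201, with 67.4, 72.2 and 74.4 in Prolif_DMSO (0.05 ± 0.11, interval -0.18 to 0.28). TNFRSF10D, another TRAIL decoy receptor, was not called in IR_DMSO but stood at 577, 528 and 536 CPM in IR_HDM201, against 189, 211 and 196 in Prolif_DMSO and 165, 175 and 188 in IR_DMSO (1.46 ± 0.11, adjusted p = 6.16e-11). Prolif_HDM201 had 325 ± 48.9 CPM. MDM4, another inhibitor of p53, was lower at 7.82 ± 0.235 against 17.6 ± 2.24 CPM (-1.17 ± 0.12). Against Prolif_HDM201 33 targets were higher and 10 lower (22.7% and 23.8% of all genes, median 0.58).

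The list of cell-cycle inhibitors and D and E cyclins also holds CDK, E2F and RB-family genes. All 13 of its members in the 2-fold profile kept their senescent direction. Of its 25 genes, 6 were higher and 17 lower (25.2% and 25% of all genes). Outside the profile, the inhibitors CDKN2B and CDKN1C were lower (-0.71 and -0.95), after 0.36 and 0.55 in IR_DMSO. CDKN1C was chosen after its values were seen. CCND2, a D-type cyclin, was raised further, from 3.85, 5.09 and 6.83 CPM in Prolif_DMSO to 123, 148 and 140.2 in IR_DMSO and 246, 245 and 223 in IR_HDM201. Its change of 5.52 ± 0.16 was among the 12 largest rises by the same rule, and IR_HDM201 was also higher than IR_DMSO (0.80 ± 0.13, adjusted p = 8.69e-05). CCND1, its relative, rose to 4137 ± 461 from 1053 ± 39.8 CPM (1.97 ± 0.11). CDKN2C, the inhibitor p18, fell to 2.82 ± 0.775 from 68.2 ± 3.69 CPM (-4.66 ± 0.19). CDKN2A, which encodes p16 and ARF, had 14.8, 17.6 and 15.6 CPM in Prolif_DMSO, 16.1, 12.7 and 13.4 in IR_DMSO and 8.68, 6.94 and 9.33 in IR_HDM201. It was lower in IR_HDM201 than in Prolif_DMSO (-0.94 ± 0.15, adjusted p = 1.25e-05), and Prolif_HDM201 had 11.7, 9.98 and 8.88 CPM, a compound-matched difference of -0.29 ± 0.15 (adjusted p = 0.122, interval -0.60 to 0.02). The plot of 12 genes shows these levels library by library.

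**Figure D2:**
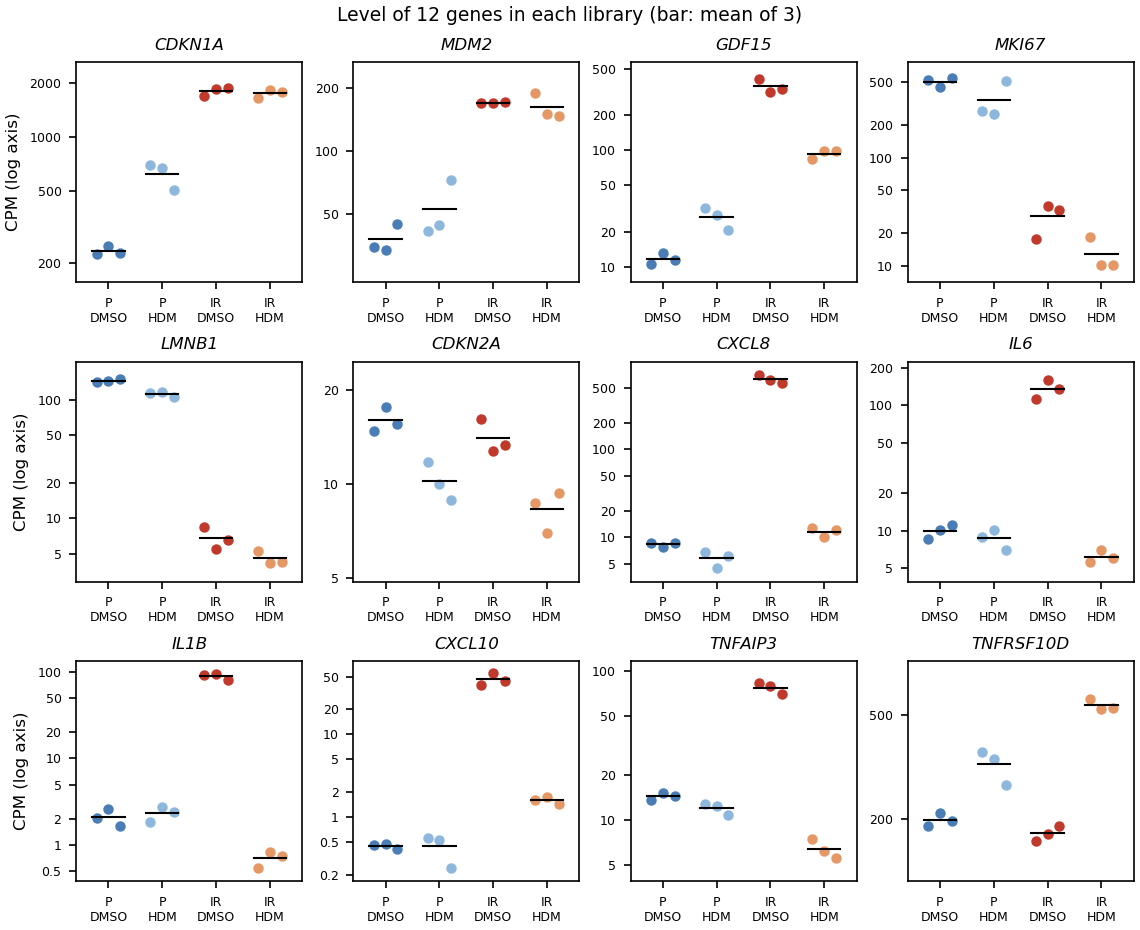
CPM on a log axis in each of 3 libraries (points) with their mean (bar) for 12 genes in Prolif_DMSO, Prolif_HDM201, IR_DMSO and IR_HDM201 (P, proliferating). CDKN1A and MDM2 overlap between both irradiated groups, MKI67 and LMNB1 are low in both, and CXCL8, IL6, IL1B, CXCL10 and TNFAIP3 are highest in IR_DMSO.

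NF-kB cytokines and chemokines lost most of their rise. Of 51 listed genes 45 were tested, and in IR_DMSO 38 of them were higher than in Prolif_DMSO and 0 lower, with a median of 2.31. In IR_HDM201 against Prolif_DMSO 13 were higher, 12 lower and 20 not called, near the background of 25.2% and 25%, with a median of 0.11 (0.25 with library totals as the only scale). Against IR_DMSO 40 of the 45 were lower and 0 higher (11.3% and 9.96% of all genes), with a median of -2.66. Of the 35 members in the 2-fold profile, 13 remained, 3 returned, 7 were opposite and 12 were unresolved.

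CXCL8 (chromosome 4, 73740519 to 73743716, hg38), the neutrophil chemokine IL-8, had 8.69, 7.72 and 8.61 CPM in Prolif_DMSO, 709, 622 and 574 in IR_DMSO and 12.7, 10.1 and 12.3 in IR_HDM201. The IR_HDM201 libraries lay a little above all Prolif_DMSO libraries (0.49 ± 0.14, 1.401-fold, adjusted p = 0.0069), while IR_DMSO was 75.8-fold higher than Prolif_DMSO. C3, the central complement component, remained clearly raised, with 1.42, 1.51 and 1.37 CPM in Prolif_DMSO, 189, 289 and 271 in IR_DMSO and 22.3, 21.7 and 18.3 in IR_HDM201 (3.87 ± 0.19, adjusted p = 1.39e-13). SOD2, the mitochondrial superoxide dismutase, stood at 179 ± 21.9 against 63.03 ± 4.78 CPM (1.51 ± 0.11). CCL2, a monocyte chemokine chosen here after its values were seen, had 47.4, 54.9 and 50.02 CPM against 18.5, 23.7 and 19.1 (1.32 ± 0.15), and 137, 247 and 223 in IR_DMSO. CCL20, a lymphocyte chemokine also chosen after its values were seen, had 0 counts in Prolif_DMSO and was at least 5.98-fold higher in IR_HDM201 and at least 370.4-fold higher in IR_DMSO, taking 3 counts over the whole group as the floor.

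Others were back at the proliferating level or below it. ICAM1, a leukocyte adhesion receptor, returned to 57.2, 52.5 and 59.6 CPM, with 52.3, 53.6 and 49.1 in Prolif_DMSO and 168, 214 and 219 in IR_DMSO (0.13 ± 0.14, interval -0.17 to 0.42). The apoptosis inhibitor BIRC3 (-0.27 ± 0.28, interval -0.85 to 0.31) and the complement factor CFB (0.01 ± 0.29, interval -0.60 to 0.62) returned as well. IL6, IL1A and IL1B went lower than in proliferating cells. IL6 had 8.52, 10.2 and 11.04 CPM in Prolif_DMSO, 112, 159 and 135 in IR_DMSO and 5.58, 6.94 and 5.997 in IR_HDM201, with no overlap between the groups (-0.69 ± 0.15, adjusted p = 0.000629). IL1B, the inflammasome cytokine, had 2.07, 2.59 and 1.64 CPM in Prolif_DMSO, 91.4, 94.6 and 80.9 in IR_DMSO and 0.547, 0.835 and 0.755 in IR_HDM201 (-1.62 ± 0.27, adjusted p = 2.75e-05). IL1A, which acts upstream of the SASP at the cell surface, had 0.664, 0.905 and 1.28 CPM in Prolif_DMSO, 11.8, 17.4 and 15.3 in IR_DMSO and 0.0456, 0.571 and 0.3998 in IR_HDM201 (-1.87 ± 0.52, adjusted p = 0.00542). The IL1A call was lost without IR_HDM201 replicate 1, the lowest library (adjusted p = 0.0567).

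Feedback inhibitors and subunits of NF-kB were mixed. TNFAIP3, which encodes A20, a deubiquitinase that shuts the pathway off, had 13.7, 15.2 and 14.6 CPM in Prolif_DMSO, 83.1, 79.2 and 70.3 in IR_DMSO and 7.45, 6.24 and 5.598 in IR_HDM201 (-1.15 ± 0.13, adjusted p = 7.48e-08). NFKBIA, the inhibitor I-kappa-B alpha, had 40.5, 44.7 and 40.8 CPM in Prolif_DMSO, 131, 107 and 103 in IR_DMSO and 21.7, 22.8 and 19.6 in IR_HDM201 (-0.97 ± 0.12). NFKB1, the p105 and p50 subunit, was not called in IR_DMSO (-0.16) but was lower in IR_HDM201 (-1.12 ± 0.11), and the signal adaptor TRAF1 likewise (-0.03 and -1.51 ± 0.15). Of the other subunits in the list, RELB was lower (-0.75 ± 0.15) and NFKB2 was not called (-0.19 ± 0.10, interval -0.40 to 0.02), both chosen after their values were seen. The inhibitor TNIP1 (0.64, adjusted p = 3.52e-05) and NFKBIZ (0.37, adjusted p = 0.0143), chosen likewise, were higher, after 1.23 and 2.80 in IR_DMSO. TNIP3 was not called (-0.05). TNFAIP6, a secreted hyaluronan-binding protein, was among the 12 largest falls by the rule above. Its level was 9.53, 8.97 and 8.96 CPM in Prolif_DMSO, 13.4, 9.52 and 9.08 in IR_DMSO and 0.152, 0.308 and 0.311 in IR_HDM201 (-5.34 ± 0.30, adjusted p = 8.53e-13), with 5.51 ± 1.19 in Prolif_HDM201. Outside the list, ZC3H12A, an RNase that degrades cytokine transcripts, was opposite (-0.65 ± 0.14, after 2.75 in IR_DMSO), as was IER3, an early response gene (-1.18 ± 0.13, after 1.15).

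The windows of IL6, NFKBIA and TNFAIP3, all of the opposite class, are shown because each holds at least 1 match to the kappa-B consensus, the sequence that NF-kB binds, upstream of the start site. CXCL8, also looked up, held no match of this pattern there. Sites that differ from the pattern were not looked for, and binding was not tested. With 4 genes looked up, the classes cannot be compared by their promoters. Capitals mark every match. Only 33 of the 45 tested members had a promoter entry, under the 80% set for a share over a list, so a share over the list would be void and none is given, and the same held for interferon-stimulated genes (37 of 48).
IL6, chr7:22727107-22727156, plus strand: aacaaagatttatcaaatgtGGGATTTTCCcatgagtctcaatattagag
NFKBIA, chr14:35404801-35404850, minus strand: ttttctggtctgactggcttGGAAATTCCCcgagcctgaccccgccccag
TNFAIP3, chr6:137867184-137867233, plus strand: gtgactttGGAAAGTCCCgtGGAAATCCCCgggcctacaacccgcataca
The match lies on the strand of the gene in IL6 and on the opposite strand in NFKBIA and, for both of its matches, in TNFAIP3. Kappa-B matches stand in 10.8% of all promoters.

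**Figure D3:**
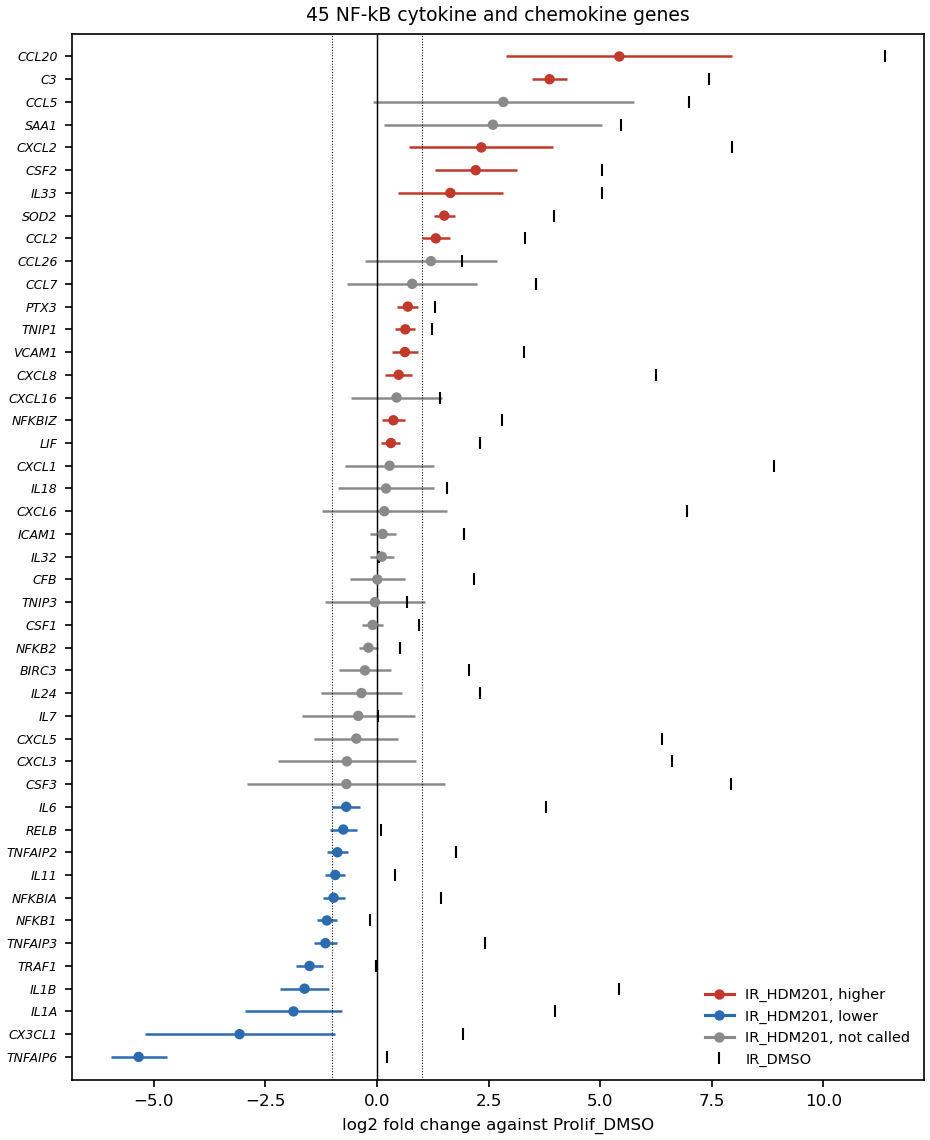
Log2 fold change against Prolif_DMSO of the 45 NF-kB cytokine and chemokine genes tested. Points with 95% intervals show IR_HDM201, colored by call, black ticks show IR_DMSO, and dotted lines mark 2-fold. IR_DMSO ticks lie mostly far to the right, while IR_HDM201 points center near 0, with 13 called higher and 12 lower.

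Interferon-stimulated genes, which code for antiviral effectors and sensors, also lost most of their rise. Of 48 tested of 51 listed, 47 were higher in IR_DMSO than in Prolif_DMSO (median 3.14). In IR_HDM201 20 were higher, 5 lower and 23 not called (median 0.69), where 25.2% of all genes were higher and 25% lower. Against IR_DMSO 46 were lower (11.3% of all genes were), with a median of -2.90. Of 45 members in the profile, 20 remained, 11 returned, 3 were opposite and 11 were unresolved. CXCL10, the interferon-induced chemokine, had 0.463, 0.474 and 0.4100 CPM in Prolif_DMSO, 39.96, 54.7 and 43.8 in IR_DMSO and 1.61, 1.76 and 1.42 in IR_HDM201, so it stayed 3.54-fold above Prolif_DMSO (1.83 ± 0.24, adjusted p = 7.89e-07). IFI6, an inhibitor of apoptosis and of flavivirus replication, had 8.49, 11.4 and 8.23 CPM in Prolif_DMSO, 1127, 690.3 and 655 in IR_DMSO and 47.3, 92.7 and 64.9 in IR_HDM201 (2.88 ± 0.30). IFIT2, which binds viral RNA, changed by 2.06 ± 0.25, after 5.74 in IR_DMSO. IFIT1, its relative, was spread widely in IR_HDM201, at 4.41, 12.7 and 6.49 CPM against 2.15, 1.51 and 1.86 in Prolif_DMSO (2.01 ± 0.75, adjusted p = 0.0402). That call was lost without any 1 of Prolif_DMSO replicates 1, 2 and 3 and IR_HDM201 replicates 2 and 3 (adjusted p = 0.0632 to 0.156). IR_HDM201 replicate 2 was the highest of its group for IFIT1, IFI6 and the antiviral ubiquitin-like gene ISG15 (39.9, 86.9 and 65.5 CPM, chosen after its values were seen).

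TRIM22, an antiviral ubiquitin ligase that p53 also induces, kept its senescent level. It had 9.51, 10.2 and 10.5 CPM in Prolif_DMSO, 81.5, 91.00 and 88.3 in IR_DMSO and 85.5, 90.5 and 91.7 in IR_HDM201, and the difference between the irradiated groups was 0.04 ± 0.09 (interval -0.16 to 0.23). The RNA sensor IFIH1, which encodes MDA5, returned, with 15.8, 17.8 and 14.9 CPM in IR_DMSO, 0.791, 1.49 and 1.24 in IR_HDM201 and 1.16, 0.647 and 1.48 in Prolif_DMSO (interval -0.80 to 0.74). Also returned were EPSTI1, an interferon-induced gene of stromal cells (-0.26 ± 0.22), and the helicase DDX60 (0.35 ± 0.26). OAS3, the synthase that activates RNase L, was opposite. It had 27.8, 29.3 and 30.3 CPM in Prolif_DMSO, 78.00, 80.04 and 78.4 in IR_DMSO and 6.28, 6.59 and 6.97 in IR_HDM201, 3 groups without overlap (-2.14 ± 0.20, adjusted p = 1.44e-08), and 21.2 ± 3.81 in Prolif_HDM201. The promoters of OAS3, IFI6, IFIT1 and CXCL10, the 4 looked up, each hold the letters GAAANNGAAA of the interferon-stimulated response element, found in 3.65% of all promoters on either strand. Capitals mark every match, and IFIT1 holds both of its matches on the opposite strand.
OAS3, chr12:112938424-112938473, plus strand: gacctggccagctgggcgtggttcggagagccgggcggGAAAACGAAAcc
IFI6, chr1:27672256-27672305, minus strand: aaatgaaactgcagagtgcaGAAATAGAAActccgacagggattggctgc
IFIT1, chr10:89392500-89392549, plus strand: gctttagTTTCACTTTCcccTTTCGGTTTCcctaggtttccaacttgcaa
CXCL10, chr4:76023689-76023738, minus strand: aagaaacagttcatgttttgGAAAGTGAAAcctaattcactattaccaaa
MHC class I genes, which present peptides to T cells, had 6 of 18 higher and 8 lower (median -0.06, and 0.09 with library totals as the only scale). Over all genes, 25.2% were higher and 25% lower. In IR_DMSO 14 of the 18 were higher and 2 lower than in Prolif_DMSO (26.3% and 25.3% of all genes), with a median of 0.67. Between the irradiated groups, 14 were lower and 0 higher in IR_HDM201 (11.3% and 9.96% of all genes). HLA-E was higher (1.03 ± 0.10), HLA-B was lower (-0.70 ± 0.12), and PSMB9, an immunoproteasome subunit, was opposite (-1.49 ± 0.29, after 1.25). HLA genes share close sequence, so their counts may be split by the counting step. Of 13 genes of cytosolic DNA sensing, 8 were lower and 2 were higher. Among the lower was CGAS, the sensor itself (-1.46 ± 0.17), after -1.06 in IR_DMSO. The nuclease SAMHD1 returned to 30.3 ± 1.997 from 59.3 ± 2.38 CPM (0.18 ± 0.11, called higher with library totals as the only scale, adjusted p = 0.0109).

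SASP proteases and growth factors split by member. Of 46 genes tested of 48 listed, 21 were higher and 13 lower in IR_HDM201 (median 0.20), against 30 higher and 7 lower in IR_DMSO (median 1.18). Over all genes, 25.2% were higher and 25% lower in IR_HDM201, and 26.3% and 25.3% in IR_DMSO. Of 29 in the profile, 20 remained, 5 returned, 2 were opposite and 2 were unresolved. WNT16, a ligand of senescent cells, remained, with 2.903, 2.93 and 2.76 CPM in Prolif_DMSO, 66.8, 67.2 and 69.1 in IR_DMSO and 63.7, 52.4 and 54.8 in IR_HDM201 (4.31 ± 0.13, adjusted p = 1.81e-17). NRG1, a ligand of ERBB receptors (1.57 ± 0.11), SERPINB2, the plasminogen activator inhibitor PAI-2 (1.80 ± 0.12), and ANGPTL4, a regulator of lipoprotein lipase (1.95 ± 0.13), remained too. Bone morphogenetic proteins, growth factors of the TGF-beta family, were among the returned. BMP2 had 58.6, 61.3 and 60.9 CPM in IR_DMSO, 18.8, 13.4 and 14.9 in IR_HDM201 and 15.7, 14.4 and 14.9 in Prolif_DMSO (0.07 ± 0.12, interval -0.19 to 0.33), and BMP4 (0.05 ± 0.12) and BMP6 (0.12 ± 0.25) lay near 0 too. STC1, a secreted glycoprotein, was counted as returned (0.28 ± 0.13) but was called higher without IR_HDM201 replicate 2 (adjusted p = 0.0321) and in a fit to the compared groups alone (0.0242). MMP3, stromelysin, was opposite, with 13.1, 12.7 and 12.9 CPM in Prolif_DMSO, 71.1, 41.3 and 40.5 in IR_DMSO and 6.55, 8.96 and 6.66 in IR_HDM201 (-0.82 ± 0.18). MMP10, its close relative, was not called in IR_DMSO and was lower in IR_HDM201 (0.674 ± 0.186 against 4.76 ± 0.493 CPM, -2.87 ± 0.23, adjusted p = 3.94e-10). PTGS2, the prostaglandin synthase COX-2 and chosen after its values were seen, had 70.6 ± 9.92 CPM in IR_DMSO and 7.01 ± 0.424 in IR_HDM201, against 4.97 ± 0.904 in Prolif_DMSO (0.48 ± 0.19, adjusted p = 0.0433, a call lost without Prolif_DMSO replicate 1 or 2 or IR_HDM201 replicate 1, 2 or 3, at 0.0511 to 0.172).

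Matrix genes remained low. Of 52 collagen and matrix genes tested, 42 were lower and 5 higher (median -1.43, against -1.13 in IR_DMSO), and all 34 in the profile remained. COL1A1, the main chain of type I collagen, had 20288, 22420.3 and 23743 CPM in Prolif_DMSO, 9178, 5241 and 5544 in IR_DMSO and 7601, 7127 and 7425 in IR_HDM201 (-1.58 ± 0.17). COL5A3, a minor fibrillar collagen, fell from 239 ± 1.86 to 6.12 ± 2.01 CPM (-5.24 ± 0.19), elastin (ELN) changed by -3.51 ± 0.15, and tenascin C (TNC) by -3.77 ± 0.13, below its IR_DMSO level as well (-1.26 ± 0.12). The collagen crosslinking enzyme LOX went the other way, with 2944, 2261 and 2185 CPM against 1336, 1311 and 1402 in Prolif_DMSO and 994, 1287 and 1336 in IR_DMSO (0.87 ± 0.13), as did the proteoglycan DCN (0.53 ± 0.10). Contractile and TGF-beta response genes had 21 of 35 lower and 6 higher (25% and 25.2% of all genes). Of the 35, 10 were higher and 10 lower than in IR_DMSO (9.96% and 11.3% of all genes). CNN1, calponin, returned, with 139, 218 and 232 CPM in IR_DMSO, 351, 433 and 412 in IR_HDM201 and 464, 509 and 446 in Prolif_DMSO (-0.25 ± 0.15), although it was called lower in a fit to the compared groups alone (adjusted p = 0.0332) and without the libraries that stood apart (0.00761). TAGLN, an actin-binding protein chosen after its values were seen, stood at 3006 ± 429 against 2903 ± 196 CPM, and 1496 ± 223 in IR_DMSO. MYH9, nonmuscle myosin, stayed low (-1.54 ± 0.11).

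WNT signaling genes and complement were mixed. Among 19 WNT ligands and antagonists tested of 24, 7 were higher and 8 lower (25.2% and 25% of all genes). WNT7B, a ligand, fell in both irradiated groups, with 16.6, 17.6 and 16.8 CPM in Prolif_DMSO, 0.234, 0.224 and 0.3502 in IR_DMSO and 0.167, 0.0879 and 0.0889 in IR_HDM201 (-6.96 ± 0.24). WNT2 fell (-2.12 ± 0.18), the antagonist SFRP1 rose (1.58 ± 0.10), and WNT5B, lowered by irradiation (-0.59), rose under HDM201 (0.87 ± 0.10). AXIN2 and LEF1, targets of beta-catenin chosen after their values were seen, were lower in IR_HDM201 (-2.13 ± 0.34 and -2.17 ± 0.35) with values of -0.06 and -0.53 in IR_DMSO. Of 25 complement and coagulation genes, 11 were higher and 3 lower, beside the same 25.2% and 25% of all genes. C7, a part of the membrane attack complex, was raised beyond its IR_DMSO level, at 45.01 ± 2.16 CPM in IR_HDM201 against 2.36 ± 0.412 in Prolif_DMSO (4.24 ± 0.14, adjusted p = 7.23e-17), with 1.32 ± 0.12 against IR_DMSO (adjusted p = 2.3e-08). Tissue factor (F3), the trigger of coagulation, remained higher (1.18 ± 0.09) and was not called between the irradiated groups (0.01 ± 0.09, interval -0.18 to 0.19).

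Lysosome and autophagy genes were higher in 25 of 43 cases and lower in 5 (median 0.40, against 0.44 in IR_DMSO), among them ASAH1, acid ceramidase (1.92 ± 0.16), and FUCA1, alpha-fucosidase (2.95 ± 0.26). GLB1, which encodes the enzyme of senescence-associated beta-galactosidase staining and was chosen after its values were seen, stood at 72.2, 85.2 and 72.9 CPM against 67.95, 77.4 and 70.4 (0.09 ± 0.12, interval -0.15 to 0.33). It was called higher with library totals as the only scale (adjusted p = 0.0334). Cathepsin K (CTSK) was lower than in either other group (-0.96 ± 0.11 against Prolif_DMSO). Nuclear genes of oxidative phosphorylation were higher in 19 of 35 cases and lower in 2 (median 0.36, against 0.05 in IR_DMSO), and without IR_HDM201 replicate 2 only 11 were higher. Cholesterol synthesis had 10 of 29 genes higher, such as MSMO1 (1.78 ± 0.12), and 9 lower, near the 25.2% and 25% of all genes. The integrated stress and unfolded protein response, which makes amino acids and chaperones on demand, was lower in 20 of 30 genes and higher in 2 (median -0.74, against -0.65 in IR_DMSO), with PHGDH, the first enzyme of serine synthesis, at 41.3 ± 4.31 against 356 ± 21.9 CPM (-3.11 ± 0.12). ATF3, a stress factor of the same list, returned (13.1 ± 1.904 from 55.6 ± 3.05 CPM, 0.16 ± 0.14), but was called higher with library totals as the only scale (adjusted p = 0.0428).

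Genes of the immediate early and heat shock response, which handling of cultures can move, were lower in 14 of 26 cases and higher in 3. Over all genes, 25% were lower and 25.2% higher. The median of the list was -0.61, against 0.04 in IR_DMSO. These calls are from the same comparison in which the NF-kB list lost its rise. The part of the immediate early and heat shock genes in that result was not tested. EGR1, a serum-responsive factor, was at 18.4 ± 1.25 against 72.5 ± 1.95 CPM (-1.97 ± 0.15). NR4A2, a nuclear receptor, stayed higher (1.49 ± 0.16).

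**Figure D4:**
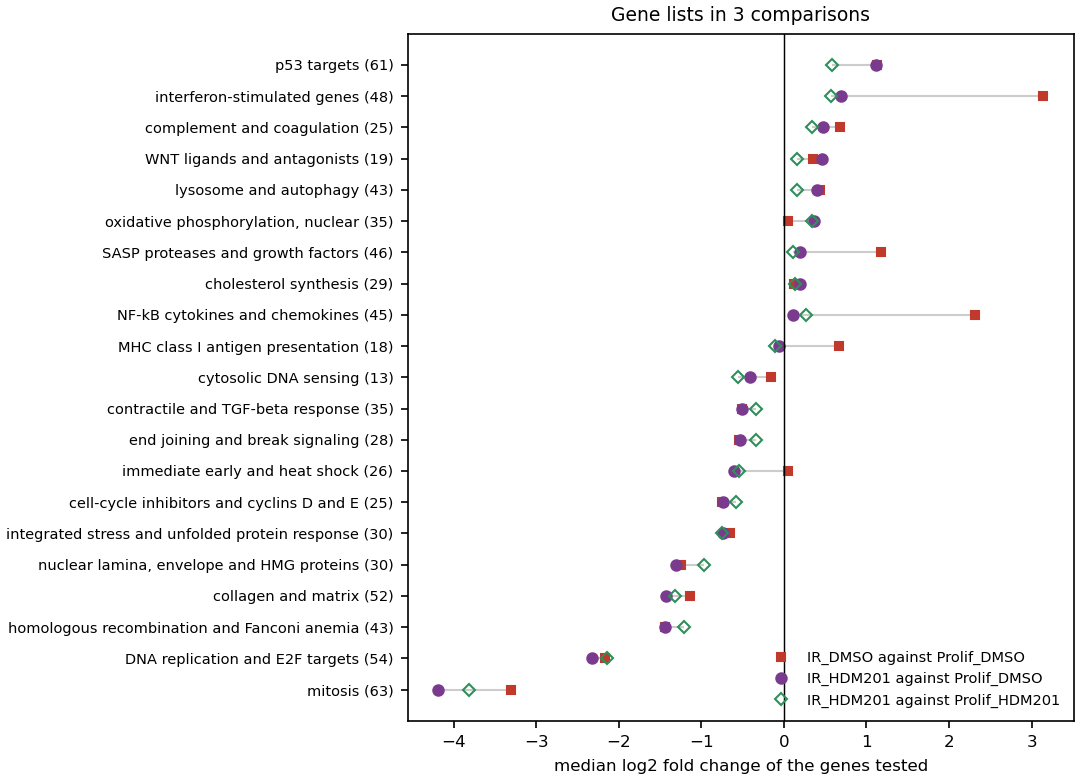
Median log2 fold change (horizontal axis) of the genes tested in each of 21 gene lists (number tested in parentheses) for 3 comparisons. The medians for NF-kB and interferon-stimulated genes fall from 2.31 and 3.14 in IR_DMSO (squares) to 0.11 and 0.69 in IR_HDM201 (filled circles), those for p53 targets are 1.13 and 1.12, and that for mitosis goes from -3.31 to -4.18.

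Beyond the senescent profile, 2157 genes were called in IR_HDM201 against Prolif_DMSO but not in IR_DMSO against Prolif_DMSO, 1199 of them higher and 958 lower (192 and 418 by 2-fold or more). TNFRSF10D, HMGA2, XRCC4 and TNFAIP6 are among them. KRT19, a keratin that was already called higher in IR_DMSO (0.88), rose further under HDM201 (114 ± 18.9 against 24.6 ± 0.472 CPM, 2.21 ± 0.13). HES1, a target of Notch, fell further (7.84 ± 0.335, 2.22 ± 0.169 and 0.426 ± 0.0270 CPM in Prolif_DMSO, IR_DMSO and IR_HDM201), as did RASL12, a small GTPase (-4.26 ± 0.27), with 10.3 ± 0.486, 3.94 ± 0.576 and 0.607 ± 0.263 CPM in those groups. Among the 12 largest rises, PTCHD4, a p53-induced Hedgehog repressor (6.02 ± 0.25), and ADAMTS19, a metalloprotease (5.64 ± 0.21), were raised in IR_DMSO as well, at 5.59 and 5.34.

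**Figure D5:**
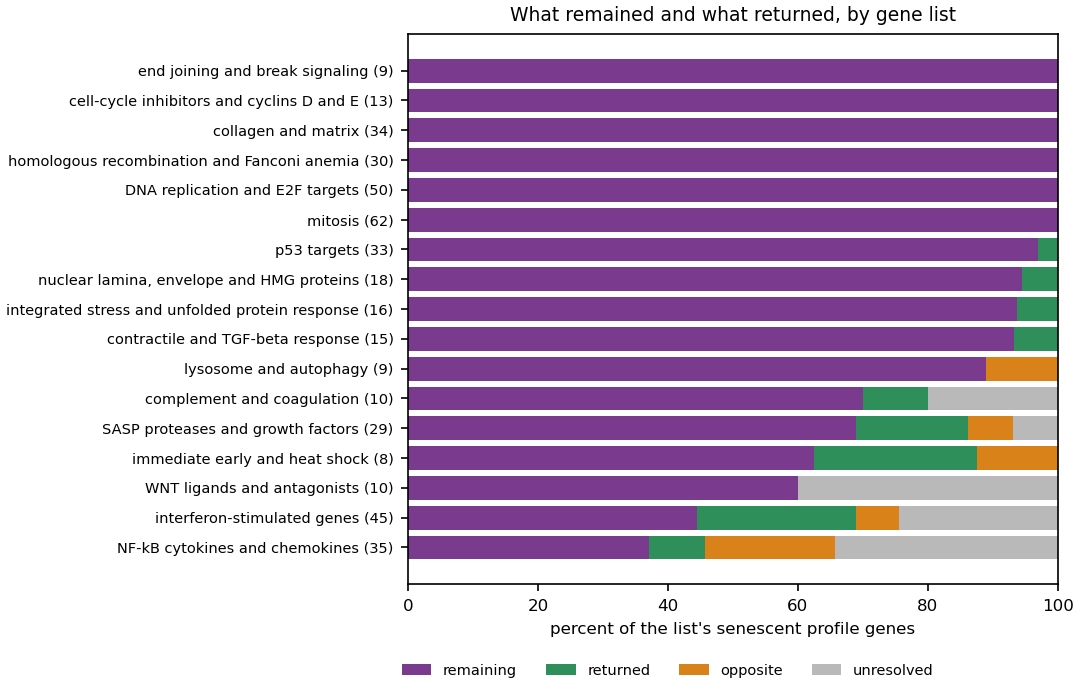
Percent of the senescent profile genes of each list (number in parentheses, lists with at least 8) that remained, returned, were opposite or were unresolved in IR_HDM201 against Prolif_DMSO. All profile genes of mitosis (62), replication (50), collagen and matrix (34) and recombination (30) remained, against 20 of 45 interferon-stimulated and 13 of 35 NF-kB genes.

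The compound-matched comparison, IR_HDM201 against Prolif_HDM201, uses no Prolif_DMSO library and called 8436 genes (46.5%), with 1541 higher (8.49%) and 1696 lower (9.34%) by 2-fold or more. At any size, 22.7% of all genes were called higher and 23.8% lower. For NF-kB genes it gave 12 higher and 12 lower (median 0.27), for interferon-stimulated genes 21 higher and 5 lower (median 0.57), for replication 53 of 54 lower (median -2.14), and for collagen and matrix 42 lower and 5 higher (median -1.32). CXCL8 was 1.00 ± 0.15 and IL6 -0.50 ± 0.15 against Prolif_HDM201, IL1B -1.81 ± 0.27, TNFAIP3 -0.89 ± 0.13 and OAS3 -1.68 ± 0.20, so each of these genes kept its direction with the compound in both groups.

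Whether the compound changed the effect of irradiation was tested by the interaction of both factors, which called 1568 genes (8.64%), 539 higher (2.97%) and 1029 lower (5.67%). Without Prolif_HDM201 replicate 3 the count was 2943, and without both libraries that stood apart 3321. The effect of irradiation was lower with HDM201 than with DMSO for TNFAIP3 (-3.31 ± 0.18, adjusted p = 1.35e-11), NFKBIA (-2.33 ± 0.17) and OAS3 (-3.12 ± 0.27). For TRIM22, not called between the irradiated groups, the difference was -1.18 ± 0.14 (adjusted p = 2.51e-06), beside 23.4 ± 1.91 CPM in Prolif_HDM201. MKI67 gave -0.57 ± 0.50 (adjusted p = 0.576, interval -1.64 to 0.51).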

How the data were processed

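RNA-seq libraries were made from polyadenylated RNA of IMR90 fibroblasts. Per the labels and the study's methods, the authors aligned reads to hg38 with STAR in 2-pass mode and deposited raw counts per gene from HTSeq. The sources used here do not give versions, annotation release or strand setting, so reads of overlapping and antisense genes may not be separable. An FPKM table from Cufflinks was not used.

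Counts were used as deposited. Of 60668 genes, 45 pseudoautosomal Y copies were left out, and IDs were matched to GENCODE 44 (99.46%). Genes were filtered with filterByExpr (18151 tested) and fitted with edgeR 4.0.16 (R 4.3.3) by its quasi-likelihood test on TMM-scaled counts of all 18 libraries, with 1 mean per group (12 residual degrees of freedom) and Benjamini-Hochberg adjustment. Depth was 21609198 to 66647700 counts. Replicates of a group differed by more than sampling noise (lowest chi-square per degree of freedom 3.79), so all were counted. Same-numbered samples did not deviate together (1 of 3 pairs of the compared groups had r over 0.1, and 8 of 45 pairs over all groups), so no pairing was used.

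On simulated counts of 17706 genes for IR_HDM201 against Prolif_DMSO, the test recovered 23 of 50 genes changed 1.5-fold, 42 of 50 changed 2-fold and all 50 changed 4-fold, with 16 false calls. Every unchanged gene had the same mean in both groups, unlike the data, where 50.2% of genes were called. False calls that arise from scaling were therefore not tested.

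Gene lists and members were chosen with earlier results of these data known. Named genes were a panel, the 12 largest rises and 12 largest falls among called genes of at least 1 CPM whose groups did not overlap, the 5 members of each list with the smallest p, up to 3 that went against their list, up to 4 that returned, the 10 opposite genes with the smallest p, and the 10 remaining genes pushed farthest in the direction of irradiation. Others are marked in the text, and some genes that the rule names are not reported here. Promoters came from RefSeq (GRCh38.p14). Alternatives were DESeq2 1.42.0, other scalings, filters, thresholds, a replicate block and leaving out libraries.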

Additional observations from a re-analysis of the deposited data

Results flagged for a closer look

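The effect of irradiation differed between HDM201 and DMSO, by a test of the interaction in the edgeR fit, for 1568 of 18151 genes (8.64%, adjusted p under 0.05), and for 2943 without Prolif_HDM201 replicate 3. Each value below is the log2 fold change of irradiation with HDM201 minus that with DMSO. The effect was lower with HDM201 for CDKN1A (-1.48, adjusted p = 4.63e-07) and GDF15 (-3.11, adjusted p = 9.07e-11). It was also lower for CXCL8 (-5.24, adjusted p = 1.33e-13), IL6 (-4.27, adjusted p = 4.64e-12), IL1A (-5.73, adjusted p = 4.26e-06), IL1B (-7.24, adjusted p = 2.25e-12), CXCL10 (-4.73, adjusted p = 7.48e-09), IFIT1 (-4.15, adjusted p = 0.0303) and MMP3 (-2.65, adjusted p = 2.04e-07). For TNFRSF10D the difference was 0.92 (adjusted p = 0.000139). For CDKN1A the difference stands beside a level in Prolif_HDM201 of 627 ± 104 CPM (SD, n = 3), against 231 ± 13.2 in Prolif_DMSO.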

How the results depend on the processing

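No named gene that was called in the main fit or in the alternative reversed its direction. Genes called in neither were not checked for a change of sign. Of the genes named, 4214 comparisons with an alternative gave the same call, 119 lost it and 30 gained it. Counts were compared by size alone. Of the counts per list, 52 moved by more than 1.5-fold, or to or from 0, and 748 did not. Of the summary counts, 36 moved and 250 did not. The median of MHC class I genes changed sign, from -0.06 to 0.09 with library totals. With library totals as the only scale, 2498 raised and 987 lowered genes remained, 15 lowered genes returned and 56 were unresolved. Without a filter on low counts 2 lowered genes were opposite, and with at least 1 CPM in 3 libraries 227 raised and 29 lowered genes were unresolved. At an adjusted p under 0.01, 2211 genes were called between IR_HDM201 and IR_DMSO, 818 for the interaction, and 0 lowered genes were opposite. With a 2-fold minimum 3942 genes were called in IR_HDM201 against Prolif_DMSO (1908 higher and 2034 lower), 378 of the list members (591 without it), 4131 in IR_DMSO against Prolif_DMSO, 1160 against IR_DMSO, 3237 against Prolif_HDM201 and 769 for the interaction. A bound of 1.5-fold left 42 raised and 25 lowered genes returned. Without a fold minimum on the profile, 3326 raised and 3490 lowered genes remained, 634 and 917 returned, and 95 and 46 were opposite. Without the libraries that stood apart the interaction called 3321 genes.

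Leaving out 1 library at a time gave 8090 to 8535 genes called in IR_HDM201 against Prolif_DMSO (3976 to 4257 higher, 4114 to 4352 lower), 555 to 579 list members, 8301 to 9004 in IR_DMSO against Prolif_DMSO, 3024 to 3323 against IR_DMSO and 7376 to 9154 against Prolif_HDM201. The interaction called 1127 to 2943 genes, the highest without Prolif_HDM201 replicate 3. Raised genes split into 1447 to 1576 remaining, 122 to 153 returned, 26 to 35 opposite and 553 to 851 unresolved. Lowered genes split into 1472 to 1608 remaining, 36 to 57 returned, 0 to 5 opposite and 87 to 171 unresolved. The 0 opposite lowered genes came without Prolif_DMSO replicate 2, 1 was left without Prolif_DMSO replicate 1 or any IR_HDM201 replicate, 2 were left without Prolif_DMSO replicate 3, and the unresolved reached 171 and 165 without IR_HDM201 replicates 1 and 3.

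With the replicate number as a block, 9122 genes were called in IR_HDM201 against Prolif_DMSO, and 1610 raised and 1532 lowered genes remained. The samples share only a number, and 8 of 18 correlated best with their own number. The cause of these changes was not tested. What depth limits was not tested.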
